A study of Homo sapiens with 4 samples.

Results

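The integrated stress response genes ATF4, ATF3, DDIT3, TRIB3, CHAC1, ASNS, SESN2, PPP1R15A, ATF5 and DDIT4 were examined in cisplatin-resistant head and neck squamous cell carcinoma (HNSCC) cells. They were chosen by name, as 10 of the 43305 gene names on a one-colour expression array, and every probe carrying one of these names was used. The array held 14 such probes, and each of the 10 genes was well above background on all 4 arrays. The study compared 2 human HNSCC cell lines with their resistant derivatives. HN4 and HN30 were the parental lines, grown in DMEM with serum and without cisplatin in the stated protocol. HN4_CR and HN30_CR, called HN4/DDP and HN30/DDP in the study and below, had been selected by stepwise exposure to cisplatin, a platinum drug that crosslinks DNA, and were kept in medium with 20 μM cisplatin for 48 h. Acquired resistance and the drug in the medium therefore cannot be told apart. Whether a resistant line was 1 clone was not given in the sources used here.

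Each condition was measured on 1 array, so within a line no difference between resistant and parental cells could be checked against replicates or tested. The error given with a difference is the scanner SD, which follows from the error that the scanner software gave each spot. It was 0.20 to 0.22 on the log2 scale for the probe representing each of the 10 genes, and it does not cover the spread between cultures, extractions or labellings. A level is the log2 signal minus the 75th percentile of its own array, so levels compare arrays for 1 gene and not 1 gene with another. The 75th percentile signal was 494 in HN4 against 496 in HN4/DDP, and 444 in HN30 against 480 in HN30/DDP, and 55.3% to 63.6% of spots were well above background. No spot was saturated. Of 9 squamous epithelial markers, 9 were well above background on 3 arrays and 8 in HN30/DDP, where KRT6A was not. KRT6A was therefore at least 182.6-fold lower there than in HN30, though its log2 difference was only -5.39 with normexp background correction. In HN4/DDP 3 of these markers were higher by more than 2 on the log2 scale, KRT6A (3.32), KRT17 (3.29) and KRT14 (2.33, or 1.71 with normexp background correction), against 2.24% of all genes. KRT5 was lower there (-4.05), while KRT5 was -1.93 in HN30/DDP. The median of the markers was 0.58 in HN4 and -0.06 in HN30. Among 6 fibroblast markers 2 were above background on every array, and their summed signal was 195 in HN4 against 510 in HN4/DDP, and 99.1 in HN30 against 370 in HN30/DDP. COL1A1, a collagen chain, was higher by 1.73 and 2.43 on the log2 scale, or by 1.37 and 1.56 with normexp, which ends its call past 2 in HN30. The summed signal of 4 leukocyte markers was 1627 in HN30 and 19016 in HN30/DDP, nearly all CD14, which was higher by 3.49 there and by 0.56 in HN4/DDP. Of 4 endothelial markers 2 or 3 were above background, and their summed signal was 99.3 to 157. PECAM1 was at least 2.05-fold lower in HN4/DDP and at least 1.64-fold higher in HN30/DDP, but -0.53 and 0.21 on the log2 scale with normexp, and VWF was dim in HN4, with log2 differences of 0.96 in HN4 and 0.39 in HN30 with normexp in place of 2.43 and 1.49. The part of these markers in the values below was not tested. In RNA from a whole culture, a different share of cells and a different level per cell cannot be told apart.

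In the integrated stress response, kinases that sense unfolded protein, amino acid shortage, viral RNA or haem deficiency phosphorylate the translation factor eIF2. Most protein synthesis then slows, while mRNAs with upstream open reading frames, among them those of ATF4, ATF5, DDIT3 and PPP1R15A, are translated better. ATF4 is a bZIP transcription factor that binds composite elements in genes for amino acid supply, glutathione handling and further bZIP factors. Since ATF4 is controlled largely at translation, an array reads its mRNA and not its activity.

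The promoters of the genes were searched for the sequence that ATF4 and C/EBP proteins bind as a pair. All 10 genes were matched by accession to RefSeq, whose table held 18 promoters for them on GRCh38.p14. Each promoter was searched on both strands from 250 bases before the start to 50 bases after it. The composite element, spelled TGATGNAAN, was found for 3 of the 10 genes, ASNS, ATF3 and CHAC1, and for 4.45% of all 27305 genes in the table. The full cAMP response element, spelled TGACGTCA, was found for 1 of the 10, PPP1R15A, and for 2.25% of all genes. Its core TGACG, which lies within the full element, was found for 4 of the 10, ATF4, ASNS, ATF5 and PPP1R15A, and for 28.4% of all genes. The 250 bases before the start are shown for the 4 genes that hold a composite or full element, 5′ to 3′ toward the gene, with the element in capitals. They lie at chr7:97872409-97872658 on the minus strand for ASNS, and on the plus strand at chr1:212565157-212565406 for ATF3, chr15:40953221-40953470 for CHAC1 and chr19:48872171-48872420 for PPP1R15A.
ASNS: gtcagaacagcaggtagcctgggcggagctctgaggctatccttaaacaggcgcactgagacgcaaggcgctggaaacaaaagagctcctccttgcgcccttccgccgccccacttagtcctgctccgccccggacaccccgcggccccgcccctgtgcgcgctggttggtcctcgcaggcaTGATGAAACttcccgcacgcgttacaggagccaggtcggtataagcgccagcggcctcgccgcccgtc
ATF3: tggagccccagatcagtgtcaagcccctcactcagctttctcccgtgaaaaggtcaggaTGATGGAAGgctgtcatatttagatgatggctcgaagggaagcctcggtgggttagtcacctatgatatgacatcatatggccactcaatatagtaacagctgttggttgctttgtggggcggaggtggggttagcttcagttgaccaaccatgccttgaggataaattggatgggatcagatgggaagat
CHAC1: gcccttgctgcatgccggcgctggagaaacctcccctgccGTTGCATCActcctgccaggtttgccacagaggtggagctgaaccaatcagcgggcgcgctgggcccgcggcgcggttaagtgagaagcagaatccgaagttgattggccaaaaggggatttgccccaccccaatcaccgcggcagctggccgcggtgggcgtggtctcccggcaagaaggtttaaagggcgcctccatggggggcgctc
PPP1R15A: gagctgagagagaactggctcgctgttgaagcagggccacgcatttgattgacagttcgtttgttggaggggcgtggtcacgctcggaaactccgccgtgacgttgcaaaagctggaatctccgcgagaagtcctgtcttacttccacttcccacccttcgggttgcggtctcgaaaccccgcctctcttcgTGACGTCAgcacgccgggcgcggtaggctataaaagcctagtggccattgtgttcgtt
The element ended 60 bases before the start in ASNS, 183 in ATF3 and 202 in CHAC1, where it lay on the opposite strand, and the PPP1R15A element ended 51 bases before the start. These matches are a description of letters in a window. A gene without a match may hold an element outside the window or in another spelling. ASNS and ATF3 have 2 promoters each in the table, and in each gene the other promoter held no composite element.

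Across the 10 genes the resistant lines did not move as a block. DDIT3 and ATF3 were higher in both resistant lines, by 4.78-fold and 2.76-fold in HN4/DDP and by 4.07-fold and 4.29-fold in HN30/DDP. CHAC1 and PPP1R15A were higher in HN4/DDP, by 5.01-fold and 3.42-fold, while their HN30 differences were 0.56 and 0.07 on the log2 scale. ATF5 was 8.25-fold lower in HN30/DDP, and DDIT4 was lower in HN4/DDP and higher in HN30/DDP. ATF4 mRNA itself differed by -0.33 and 0.00 on the log2 scale.

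**Figure D1:**
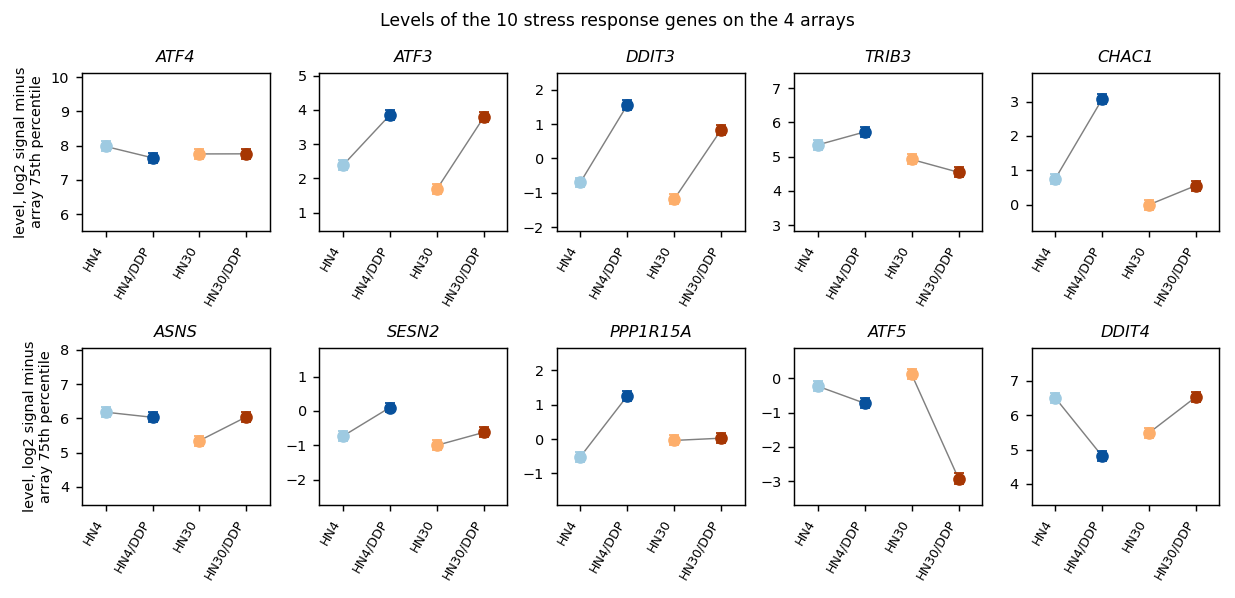
Level of each gene (y axis, log2 signal minus the 75th percentile of the array) on the 4 arrays (x axis), with bars for the scanner SD and a line joining each parental line to its resistant derivative. Every panel spans the same height on the log2 scale, so slopes can be compared: DDIT3 and ATF3 slope up in both lines, ATF4 is nearly flat, and DDIT4 slopes down in HN4 and up in HN30.

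ATF4 was read by 1 probe (hg19 chr22:39918577-39918636). Its level was 7.98 in HN4 against 7.65 in HN4/DDP, and 7.76 in HN30 against 7.76 in HN30/DDP. The 4 levels spanned 0.33, and no neighbours in their order differed by more than 2 scanner SDs. The HN30 difference was -0.42 when arrays were scaled by their median and 0.40 when a trend with brightness was removed, so no direction is given for it.

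ATF3, a bZIP factor induced by many stresses, had a level of 2.38 in HN4 against 3.85 in HN4/DDP, and 1.69 in HN30 against 3.79 in HN30/DDP. Both resistant arrays were above both parental arrays, and the resistant levels differed by 0.06, within their scanner SD. The difference was 1.47 in HN4 and 2.10 in HN30, where it was higher than for 92.4% of the 28330 genes above background on either array of the pair.

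ATF3 was the member with most probes, 4 in number, and they did not all read alike. The representing probe (hg19 chr1:212793856-212793915) gave 1.47 in HN4 and 2.10 in HN30. A probe at chr1:212792837-212792896 gave 1.69 and 1.96, and one at chr1:212788502-212788561 gave 1.26 and 1.63. The probe at chr1:212792519-212792578 gave 0.17 and 0.01, each within its scanner SD of 0. Its signals were 98.3 in HN4 against 111 in HN4/DDP, and 104 in HN30 against 113 in HN30/DDP, all well above background. It lies 318 bases from a probe that was higher in both resistant lines. The array annotation placed it on the same transcript accession as 2 of the other probes. When the 4 probes were averaged, the HN30 difference was 1.43 and no longer above 2.

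**Figure D2:**
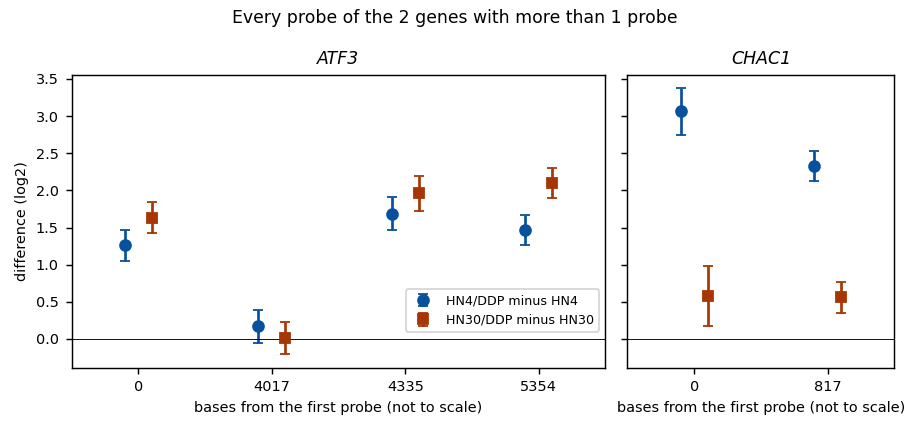
Resistant minus parental difference (y axis, log2) for each probe of ATF3 and CHAC1, ordered by position (x axis, bases from the first probe), with bars for the scanner SD, circles for HN4 and squares for HN30. Of the 4 ATF3 probes 3 sit above 1 in both lines and the probe at 4017 bases sits near 0, while both CHAC1 probes sit above 2 in HN4 and near 0.6 in HN30. The first CHAC1 probe was dim in HN30, so its HN30/DDP signal is known only to be at least 1.43-fold higher.

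DDIT3, which encodes the pro-apoptotic bZIP factor CHOP, was read by 1 probe (hg19 chr12:57911200-57911526, minus strand) whose placement spans 327 bases. Its signal was 304 in HN4 against 1460 in HN4/DDP, and 195 in HN30 against 857 in HN30/DDP. The corresponding levels were -0.70, 1.56, -1.19 and 0.84. Both resistant arrays lay at least 1.54 above both parental arrays, and all neighbours in the order differed by more than 2 scanner SDs. DDIT3 was the only one of the 10 genes past 2 in both lines, with differences of 2.26 and 2.02. The HN30 value stood close to the threshold and was below it under several alternatives, at 1.61 with median scaling, 1.76 with another background correction and 1.995 in the deposited table.

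ATF5, a bZIP factor related to ATF4 and linked to the mitochondrial stress response, went the other way from DDIT3 and ATF3. Its probe (hg19 chr19:50436754-50436813) read 422 in HN4 against 300 in HN4/DDP, and 484 in HN30 against 63.3 in HN30/DDP, well above background on each array. The levels were -0.23, -0.72, 0.12 and -2.92, so that HN30/DDP stood apart from the other 3 arrays by 2.20 or more. The difference was -0.50 in HN4 and -3.04 in HN30, where only 0.635% of genes above background had a lower one. The HN30 difference ranged from -3.46 to -2.20 over the alternatives, the latter with another background correction, and stayed past the threshold in each.

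PPP1R15A encodes GADD34, which brings a phosphatase to eIF2 and so ends the response. Its probe (hg19 chr19:49378127-49378901, spanning 775 bases) gave a level of -0.52 in HN4 against 1.26 in HN4/DDP, and -0.04 in HN30 against 0.02 in HN30/DDP. HN4/DDP was above the other 3 arrays by at least 1.23, and the 2 HN30 arrays differed by less than their scanner SD. The difference was 1.77 in HN4, above that of 95.7% of genes above background. In HN30 it was 0.07, and -0.35 with median scaling.

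TRIB3 encodes a pseudokinase that binds ATF4 and DDIT3 and dampens their activity. It was read at hg19 chr20:378107-378166, with levels of 5.34 in HN4 against 5.72 in HN4/DDP, and 4.92 in HN30 against 4.54 in HN30/DDP. The resistant minus parental difference was 0.38 in HN4 and -0.37 in HN30, both within 2 scanner SDs. The HN30 sign turned under quantile normalization, with the brightness trend removed and in the deposited table. The widest gap for TRIB3 was between the resistant lines, -1.18 from HN4/DDP to HN30/DDP.

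CHAC1 encodes a glutathione-degrading enzyme. Its brighter probe (hg19 chr15:41248631-41248690) read 825 in HN4 against 4149 in HN4/DDP, and 442 in HN30 against 703 in HN30/DDP. The levels were 0.74, 3.06, -0.01 and 0.55, with HN4/DDP 2.32 above the next array. That difference was larger than for 97.3% of genes above background in HN4. The second probe (hg19 chr15:41247814-41247873) gave 3.06 in HN4 with a scanner SD of 0.32. It was not well above background in HN30, so the HN30/DDP signal was at least 1.43-fold higher there. The 4 CHAC1 levels spanned 3.07 from HN30 to HN4/DDP, and those of ATF5 spanned 3.04.

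ASNS, the enzyme that makes asparagine and a much used reporter of ATF4, was read at hg19 chr7:97481461-97481520 on the minus strand. Its level was 6.18 in HN4 against 6.03 in HN4/DDP, and 5.35 in HN30 against 6.04 in HN30/DDP. The HN30 array was the low one, and the other 3 lay within 0.15 of each other. The difference was -0.15 in HN4, within its scanner SD, and 0.69 in HN30. Removing the brightness trend raised the HN30 value to 1.17, and median scaling lowered it to 0.28.

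SESN2 encodes sestrin 2, which restrains the growth kinase complex mTORC1 when amino acids or redox balance fail. It was read at hg19 chr1:28608194-28608253, with levels of -0.73 in HN4 against 0.10 in HN4/DDP, and -1.001 in HN30 against -0.62 in HN30/DDP. HN4/DDP was the high array, and the other 3 differed from their neighbours by less than 2 scanner SDs. The difference was 0.83 in HN4 and 0.38 in HN30, the latter -0.04 with median scaling.

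DDIT4 encodes REDD1, also an mTORC1 inhibitor, and had the most spots of the 10 genes, 10 on each array. It was read at hg19 chr10:74035363-74035422, and the SD between its spots was 0.01 to 0.02 on the log2 scale. The signal was 45222 in HN4 against 13967 in HN4/DDP, and 19904 in HN30 against 44470 in HN30/DDP. The levels were 6.52, 4.82, 5.49 and 6.54, so the high arrays were parental HN4 and resistant HN30/DDP. DDIT4 was 3.25-fold lower in HN4/DDP than in HN4, a difference of -1.70 that only 3.03% of genes above background undercut. In HN30/DDP it was 2.07-fold higher than in HN30, a difference of 1.05 that ranged from 0.63 to 1.55 over the alternatives. The sign held in both lines under each of 10 alternatives, and the HN30 difference minus the HN4 difference was 2.75.

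Counted by the threshold of the study, a log2 difference above 2, the genes stood as follows. In HN4/DDP 2 of the 10 genes, CHAC1 and DDIT3, were higher and 0 were lower, against 2.24% of all 43305 genes higher and 1.36% lower. Above a difference of 1 they were joined by PPP1R15A and ATF3, so that 4 were higher, and DDIT4 was lower, against 5.77% and 5.36% of all genes. In HN30/DDP 2 of the 10, ATF3 and DDIT3, were higher and 1, ATF5, was lower, against 5.48% and 1.8%. Above a difference of 1 DDIT4 joined the higher genes, so that 3 were higher and 1 lower, against 12.9% and 8.67%. The median difference of the 10 genes was 0.61 in HN4 and 0.47 in HN30, the latter 0.049 with median scaling. Over all genes above background on either array of a pair it was -0.08 and 0.06. No test stands behind these counts, and both HN30 calls of a higher level fell below the threshold when arrays were scaled by their median.

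**Figure D3:**
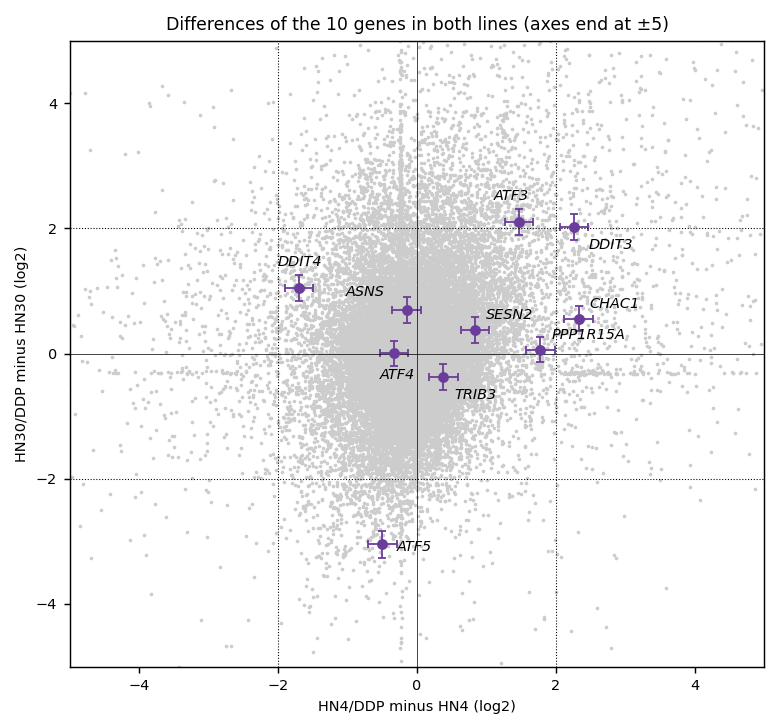
Resistant minus parental difference in HN4 (x axis, log2) against that in HN30 (y axis, log2), for the 10 genes (purple, bars for the scanner SD) and for 29521 genes that stood clear of background on 1 or more of the arrays (grey). Dotted lines mark differences of 2 in size. DDIT3 sits past 2 on both axes, ATF3 past 2 on the HN30 axis and at 1.47 on the HN4 axis, and DDIT4 in the upper left, with HN30 above 0 and HN4 below 0.

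The only comparison with more than 1 array a side set both resistant arrays against both parental arrays, with cell line as a block and the lines standing in for replicates. Each gene kept 1 residual degree of freedom in this fit. By limma with Benjamini-Hochberg adjustment 0 of 29521 genes passed an adjusted p of 0.05, or 0% of those tested, while 2537 had an unadjusted p under 0.05. The lowest adjusted p among the 10 genes was that of DDIT3, 0.445, with a mean log2 difference of 2.14 and an SE of 0.39. For ATF3 the fit gave 1.78, with an SE of 0.42 and an adjusted p of 0.485 by limma. ATF5 and CHAC1 had mean differences of -1.77 and 1.44 with adjusted p of 0.594 and 0.6005 by limma, and the remaining 6 genes lay between 0.715 and 0.999. DDIT3 and ATF3, higher in 2 of 2 lines, therefore did not pass the correction.

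The parental lines also differed in these genes. In HN30 compared with HN4, 6 of the 10 were lower by more than 2 scanner SDs, PPP1R15A was higher by as much, and ATF4, SESN2 and ATF5 were within 2 scanner SDs. Over the 25890 genes above background in either parental line, 15.2% were lower in HN30 and 14.0% higher by more than 2 scanner SDs. Some of these calls changed with the processing. With median scaling DDIT3 (-0.38) and TRIB3 (-0.32) came within 2 scanner SDs, and ATF5 (0.45) came beyond. ATF3 with the mean of probes (-0.23) and PPP1R15A with normexp (0.40) also came within 2 scanner SDs. On the main scale the differences ranged from -1.03 for DDIT4 to 0.48 for PPP1R15A, none past 2. Between the resistant lines the range was wider. CHAC1 was -2.51 and ATF5 -2.20 in HN30/DDP relative to HN4/DDP, whereas DDIT4 was 1.72.

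Lists of neighbouring pathways place these values. Of 10 genes for the eIF2 kinases and phosphatase, 0 passed a difference of 2 in either line. Of all genes 2.24% were higher and 1.36% lower by as much in HN4, and 5.48% and 1.8% in HN30. At such shares 0 of 10 says little about the list. In each line 0 were above 1 and 1 below -1, against 5.77% and 5.36% of all genes in HN4 and 12.9% and 8.67% in HN30. The medians were -0.25 in HN4 and -0.34 in HN30. The largest values were -1.29 in HN4 for EIF2AK1, the haem-sensing kinase, and -1.30 in HN30 for PPP1CA, a phosphatase catalytic subunit. Of 10 genes of amino acid and one-carbon synthesis that ATF4 is known to control, 0 passed 2 either, against the same shares. In HN4 0 were above 1 and 0 below -1, against 5.77% and 5.36% of all genes. In HN30 0 were above 1 and 1 below -1, against 12.9% and 8.67%. The medians were 0.18 and 0.01. There the largest were 0.73 in HN4 for PYCR1, of proline synthesis, and -1.10 in HN30 for PSAT1, of serine synthesis.

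Amino acid transporters lay lower. Over 9 measured genes the median was -1.28 in HN4 and -0.64 in HN30, and 6 and 3 of them were below -1, against 5.36% and 8.67% of all genes. Over the alternatives these counts ranged from 5 to 6 in HN4 and from 0 to 5 in HN30. SLC1A4 was the 1 transporter above 1 in HN30, by at least 2.16-fold, since it was not well above background in HN30. SLC7A5, the leucine importer, was -2.10 in HN4 and the only transporter past 2, with -1.29 in HN30. With quantile normalization and in the deposited table none was past 2. Among 8 measured ATF4-linked regulators and secreted factors the median was -0.27 in HN4 and 0.90 in HN30. In HN4 1 was higher and 1 lower by more than 2, against 2.24% and 1.36% of all genes, and in HN30 2 were higher, against 5.48%. The lower one was VEGFA, the angiogenic growth factor, at -2.05 in HN4 (-1.92 to -2.06 over the alternatives) and 0.66 in HN30, and in HN4 2 of the list were above 1 and 3 below -1, against 5.77% and 5.36% of all genes. In HN30 4 were above 1 and 0 below -1, against 12.9% and 8.67%. GDF15, a secreted stress cytokine that p53 also induces, was higher by 3.72 and 5.18, past 2 in both lines. NUPR1, a stress-induced chromatin protein, was higher by 1.55 and 5.63.

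For 7 measured DDIT3 targets and cell death genes the medians were -0.05 and -0.83. On the main scale 0 were higher by more than 2 in either line, against 2.24% of all genes in HN4 and 5.48% in HN30. In HN4 1 was lower by as much, against 1.36%, and in HN30 0 were, against 1.8%. The count of higher genes in HN30 was 1 with quantile normalization, and that of lower genes was 1 with median scaling. In HN4 2 genes were above 1 and 2 below -1, against 5.77% and 5.36% of all genes. In HN30 3 were above 1 and 1 below -1, against 12.9% and 8.67%, and with median scaling 1 was above and 4 below. The death receptor gene TNFRSF10B was above 1 in both lines, at 1.29 and 1.03, and BCL2L11, which encodes the BH3-only protein BIM, stood at -0.05 and 1.20. BBC3, the BH3-only protein PUMA, stood at 1.46 and 1.89, and CAV1, which encodes caveolin 1, at -3.54 and -1.65. PMAIP1, the BH3-only protein NOXA, was the other gene below -1 in HN4, at -1.30, with -0.87 in HN30. The 20 genes of the IRE1 and ATF6 branches and the endoplasmic reticulum chaperones had medians of -0.04 and -0.65. On the main scale 0 passed 2, against 2.24% of all genes higher and 1.36% lower in HN4 and 5.48% and 1.8% in HN30. In HN30 7 were below -1, against 8.67% of all genes. That count rested on the scaling, at 1 with quantile normalization and 12 with median scaling. CRELD2, an endoplasmic reticulum protein, was lowest at -1.67. ERN1, which encodes the sensor IRE1, was the 1 gene of this list above 1 in each line on the main scale, at 1.30 and 1.57. Its HN4 value came down to 0.71 over the alternatives. With the mean of probes 0 genes of the list were above 1 in HN4 and 1 was below -1.

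Some of the 10 genes, among them ATF3, PPP1R15A and DDIT4, also belong to other stress programmes, so 2 further lists were counted. Of 12 immediate early genes, the first transcription factors induced by growth and stress kinases, 4 were higher by more than 2 in HN4 and 2 in HN30, against 2.24% and 5.48% of all genes, with medians of 1.02 and 0.11. Of the 2 in HN30, EGR2 was dim in parental HN30 and is known only to be at least 2.25-fold higher, which does not reach the threshold. FOSB was past 2 in both lines, at 2.79 and 2.37, and FOS stood at 2.84 and 0.67. With normexp background correction FOSB was past 2 in neither line, at 1.82 and 1.64, 2 genes of this list were past 2 in HN4 and 0 in HN30, and the HN4 median was 0.55. Of 12 p53 targets 2 were higher in each line and 1 was lower in HN30, against 2.24% of all genes higher in HN4, 5.48% higher in HN30 and 1.8% lower in HN30. The medians were 1.11 and 0.30, and 8 of the 12 were above 1 in HN4, against 5.77% of all genes. In HN30 3 were above 1 and 2 below -1, against 12.9% and 8.67%. CDKN1A, the cell cycle inhibitor p21, was higher by 3.58 and 2.50, and ZMAT3, an RNA-binding p53 target, by 2.35 and 2.25. With normexp ZMAT3 was 1.60 and 1.64 and CDKN1A in HN30 1.97, which left 1 p53 target higher by more than 2 in HN4 and 0 in HN30. With quantile normalization 3 were higher and 0 lower in HN30. Whether either programme has a part in the values of any of the 10 genes was not tested.

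**Figure D4:**
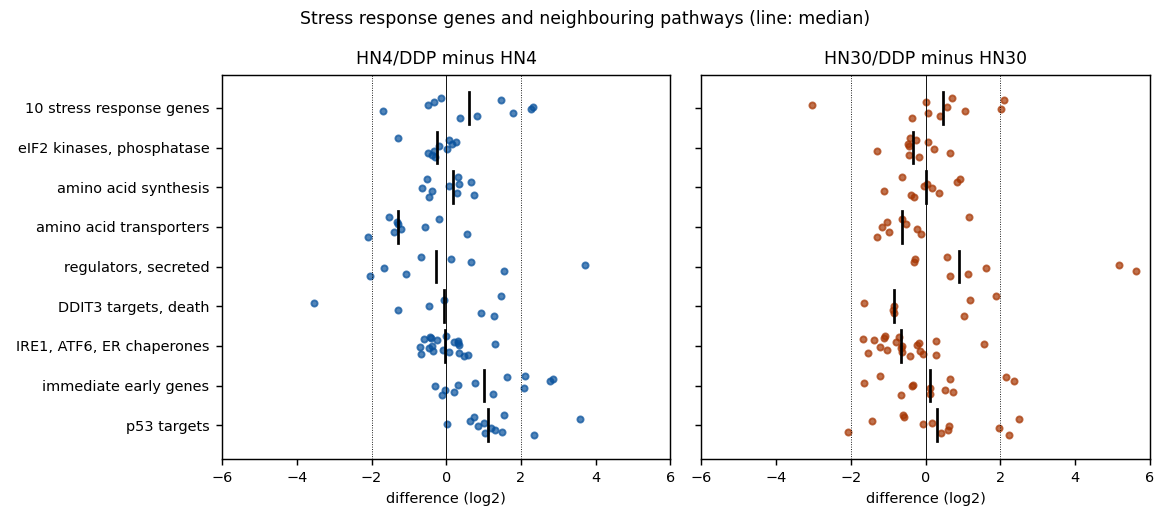
Resistant minus parental difference (x axis, log2) of each gene above background on either array of the pair, by list (y axis), for HN4 (left) and HN30 (right), with a black line at each list's median and dotted lines at differences of 2 in size. The 10 stress response genes spread from -1.70 to 2.32 in HN4 and from -3.04 to 2.10 in HN30, transporters lie mostly left of 0, and GDF15 and NUPR1 are the points beyond 5 in HN30.

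The choice of scaling mattered for HN30 and little for HN4. Against the main scale, median scaling moved the median of all genes above background by -0.42 in HN30 and 0.04 in HN4. Quantile normalization and the deposited table each moved it by -0.12 in HN30, and counting each probe once in the percentile by -0.13. In HN30 the bright genes ATF4, TRIB3, ASNS and DDIT4 read higher after quantile normalization than on the main scale, by 0.28 to 0.53. ATF3 in HN30 was between 1.43 and 2.48 over the alternatives, and CHAC1 in HN4 between 2.26 and 2.69.

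**Figure D5:**
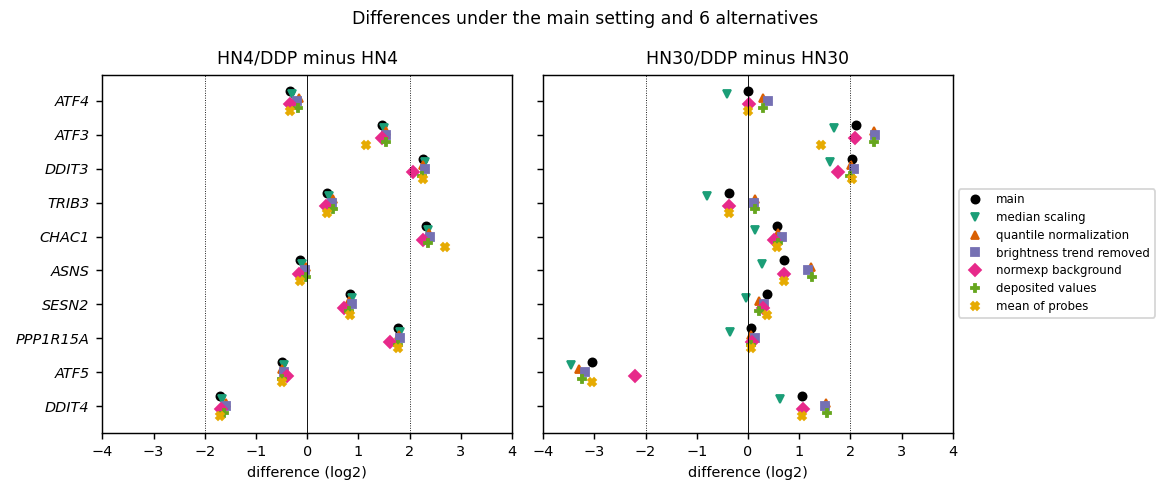
Resistant minus parental difference (x axis, log2) of each of the 10 genes under the main setting (black circle) and 6 alternatives (coloured symbols), for HN4 (left) and HN30 (right), with dotted lines at differences of 2 in size. The HN4 values lie close together, while in HN30 median scaling lies to the left throughout and ATF4, PPP1R15A, SESN2 and TRIB3 have values on both sides of 0.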

How the data were processed

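Total RNA of 4 cultures was labelled with Cy3 and hybridised to 4 one-colour Agilent arrays on 1 slide, read in 1 scan. The deposited scanner files hold processed signal intensity per spot, which the authors obtained with Agilent Feature Extraction 10.7.1.1, per the labels and file headers, after its background correction. The deposited value table holds log2 values of the authors that were quantile normalized, since the sorted values are identical on all 4 arrays. It was used as an alternative. Its resistant minus parental differences correlated with those computed here at r = 0.996 in HN4 and 0.958 in HN30 across probes, which are not independent replicates.

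Signals were log2 transformed, and the 75th percentile of all non-control spots of the array was subtracted. The scanner's outlier spots (140 to 204 an array) were dropped, repeated spots were averaged per probe, and the probe of highest mean level over the 4 arrays represented its gene. A gene was called higher above a log2 difference of 2 if the resistant array was well above background, and lower below -2 if the parental array was. A threshold of 1 was an alternative. A probe dim on 1 array of a pair has only a bound. The joint comparison used limma 3.58.1 (R 4.3.3) with an intensity trend on 29521 genes, and was checked on simulated data. Arrays have no read depth, and their number, 1 a condition, limits the precision. The members and lists were chosen with earlier results of these data known, so their counts are descriptions. Named from each list, markers included, were genes past 2 one way in both lines, and the gene with the largest difference in each line. Others were named after their values were seen. SLC1A4, JDP2, STC2, EGR1 and TP53I3 were named for opposite differences in the lines. VEGFA, KRT14, KRT17, EGR2, TNFRSF10B, BCL2L11 and PMAIP1 were named as genes behind a count of their list. ERO1A was listed but is named ERO1L on the array, and 1 leukocyte marker, LYZ, had no matching name. Probe positions are those of the array annotation (hg19), and promoters are from RefSeq (GRCh38.p14). Python 3.11.15 was used, and 12 alternatives were tried.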

Additional observations from a re-analysis of the deposited data

Results flagged for a closer look

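Among the 10 genes and the pathway lists, cell type markers apart, 6 genes had differences of opposite sign in the lines, each above 1 in size on the main scale. Each line has 1 array a condition, so none of these differences between lines was tested. DDIT4 was -1.70 in HN4 and 1.05 in HN30. SLC1A4, a neutral amino acid transporter, was measured at -1.52 and 1.16, but was not well above background in HN4/DDP or HN30, so it was at least 2.52-fold lower in HN4/DDP and at least 2.16-fold higher in HN30/DDP. With normexp background correction its values were -0.43 and 0.29, neither above 1 in size. JDP2, a bZIP repressor, was -1.67 and 1.63. STC2, a secreted glycoprotein induced in endoplasmic reticulum stress, was -1.07 and 1.13. EGR1, an immediate early factor, was 2.11 and -1.21, and TP53I3, a p53-induced oxidoreductase, was 1.49 and -2.06. Over the alternatives the HN30 value also came below 1 in size for DDIT4 (0.63 to 1.55), STC2 (0.71 to 1.37) and EGR1 (-1.63 to -0.78).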

How the results depend on the processing

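By replicate number, no paired analysis was possible because no condition holds a second replicate, so replicate numbers cannot serve as a block. The limma comparison pairs the arrays by cell line instead. Of 200 differences of the 10 genes under alternatives, 168 moved by less than their scanner SD. In all 8 turned sign, 4 of them from a value beyond its scanner SD. Those 4 were SESN2 in HN30 with median scaling (-0.043) and TRIB3 in HN30 with quantile normalization (0.15), with the brightness trend removed (0.12) and in the deposited table (0.15). The other 4 started near 0 in HN30, ATF4 at -0.42 and PPP1R15A at -0.35 with median scaling, and -0.13 and -0.07 with each probe counted once. The count of genes higher in HN30 was 2 and became 0 with median scaling and 0 with each probe counted once in the percentile, an alternative chosen after seeing the data. It became 1 with normexp background correction, 1 in the deposited table, 1 with a pseudocount of 16 and 1 with the mean of probes. With a threshold of 1 it was 3 in HN30 and 4 in HN4, and 1 gene in place of 0 was lower in HN4. The median of the 10 genes in HN30 was 0.049 with median scaling, in place of 0.47. The count from limma stayed at 0 without the trend (2186 genes at an unadjusted p under 0.05) and with quantile values (2484). Of 96 list counts, taken with the threshold of 1 or with normexp, 31 moved by more than 1.5 times, and 24 of these were at the threshold of 1. List counts under the other settings were added after seeing the data. With 1 array a condition, a difference within a few scanner SDs was not detectable, and the spread between cultures is unknown.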
